A study of Mus musculus with 6 samples.

Results

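The Fc receptors for immunoglobulin G and their closest partners were followed in arthritic mouse synovium as 7 genes chosen by gene symbol, namely Fcgr1, Fcgr3, Fcgr4, Fcgr2b, Fcer1g, Syk and Fcgrt. They were measured by 9 of the 25697 probes on the arrays, which name 16593 genes. The mice were DBA/1 males, of an inbred strain that is prone to collagen-induced arthritis, aged 6 to 8 weeks at the start, and the synovium was dissected at the ankles. All had been immunized at the base of the tail with complete Freund's adjuvant holding 100 µg of type II collagen from cattle and boosted 2 weeks later with the collagen in incomplete adjuvant in a hind footpad, and that foot was left out. The groups were week 6, week 9 and week 15 after immunization, named by the series as induction, peak and resolution, with 2 Illumina bead arrays each. RNA came from pooled tissue, with a mean RNA integrity number of 9.5. Whether the arrays of a week held separate pools of animals is not stated, so the p-values cover only the spread from array to array, which may be technical. Every group was immunized, and untreated mice were not analysed here.

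Fc gamma receptors bind the constant part of antibodies in immune complexes and on coated particles. The activating receptors Fcgr1, Fcgr3 and Fcgr4 have no signalling motif of their own and depend on the paired chain encoded by Fcer1g, whose activating motif is phosphorylated by Src family kinases and then docks the kinase Syk. Fcgr2b carries an inhibitory motif in its own tail, recruits the lipid phosphatase Inpp5d and sets a threshold for the activating receptors on myeloid cells and for the antigen receptor on B cells. Fcgrt, the neonatal Fc receptor, pairs with B2m and returns antibody from endosomes to the blood. In mice with collagen-induced arthritis, loss of the Fcer1g chain is known to protect the joints and loss of Fcgr2b to worsen the disease.

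Promoters of the 4 classical receptors are shown because Fcgr3 and Fcgr4 had similar courses over the arrays and the brightest Fcgr2b probe had another, so that their start regions can be read beside the signals. They come from RefSeq on GRCm38.p6 and run from 250 bases before to 50 bases after the annotated start. Capitals mark the letters GAGGAA on either strand (TTCCTC as printed here), called the PU.1 core here after the myeloid factor PU.1. They also mark the interferon-response letters TTCNNNGAA, which were searched for on both strands as well. Shorter or variant forms of either, such as GGAA alone, were not searched for, so a window without a match may still hold them. The coordinates are chr3:96293920-96294219 on the minus strand for Fcgr1, chr1:171059354-171059653 on the minus strand for Fcgr3, chr1:171018676-171018975 on the plus strand for Fcgr4 and chr1:170976022-170976321 on the minus strand for Fcgr2b.
Fcgr1: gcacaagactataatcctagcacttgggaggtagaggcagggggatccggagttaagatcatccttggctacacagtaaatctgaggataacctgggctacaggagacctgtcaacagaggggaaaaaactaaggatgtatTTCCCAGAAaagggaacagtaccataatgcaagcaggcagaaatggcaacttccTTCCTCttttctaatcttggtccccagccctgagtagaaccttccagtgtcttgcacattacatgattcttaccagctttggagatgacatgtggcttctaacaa
Fcgr3: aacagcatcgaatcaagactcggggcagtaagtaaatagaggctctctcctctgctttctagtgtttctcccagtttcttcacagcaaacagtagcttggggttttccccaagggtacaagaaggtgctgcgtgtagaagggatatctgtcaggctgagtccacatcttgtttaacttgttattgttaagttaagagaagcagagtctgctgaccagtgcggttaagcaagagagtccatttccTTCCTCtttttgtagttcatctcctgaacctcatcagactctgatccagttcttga
Fcgr4: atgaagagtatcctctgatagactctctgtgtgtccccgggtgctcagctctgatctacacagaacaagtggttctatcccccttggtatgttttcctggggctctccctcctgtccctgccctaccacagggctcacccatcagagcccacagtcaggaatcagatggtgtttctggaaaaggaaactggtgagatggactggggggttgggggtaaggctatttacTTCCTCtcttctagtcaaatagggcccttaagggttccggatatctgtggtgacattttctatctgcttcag
Fcgr2b: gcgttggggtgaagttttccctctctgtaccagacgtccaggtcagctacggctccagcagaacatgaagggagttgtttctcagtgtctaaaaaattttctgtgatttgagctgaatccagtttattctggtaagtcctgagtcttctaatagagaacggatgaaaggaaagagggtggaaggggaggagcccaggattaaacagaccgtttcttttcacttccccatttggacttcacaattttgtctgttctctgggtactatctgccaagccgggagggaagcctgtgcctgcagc

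The PU.1 core was found once in each activating receptor promoter, with its first base at -55 from the start in Fcgr1, -6 in Fcgr3 and -22 in Fcgr4. Fcgr3 has a second annotated start, from which the same core lay at -15. These letters were not in the Fcgr2b window, nor in those of Fcer1g and Fcgrt. Syk also has 2 annotated starts, and the core lay in the window of the second, at -9. The interferon-response letters occurred only in Fcgr1 among the 7 genes, as TTCCCAGAA at -109, and did not overlap the PU.1 core. Of all 32851 promoters of the same 300 bases in the table, 28.3% held the PU.1 core and 8.3% the interferon-response letters, so a match describes the letters and is no evidence of binding. A link between these letters and the signals was not tested.

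On the arrays, about as many probes were above background at each week, 47.9% to 50.7% of them. The second week 15 array was dimmer, with a median intensity of 99.07 against 123.1 to 129.5 on the other arrays, and the arrays of week 15 agreed less, with Pearson's r of 0.975 across genes against 0.991 at weeks 9 and 6. The first week 15 array also carried skeletal muscle transcripts, with a summed signal of 8331.1 over 9 markers, against 241.1 on the second and at most 315.0 on any array of weeks 9 and 6. Checked against the tissue label, 7 of 10 synovial fibroblast markers were above background on every array. Cdh11 was above it on none and Prg4 has no probe named here. Of the collagen genes in that list, Col1a2 was above background on 4 arrays and Col3a1 on 5. Col1a1 had log2 signals of 5.27 to 6.95, and Dcn had 11.51 to 12.82. Lymphocyte markers were present too, with 9 of 10 B cell markers and 8 of 13 NK and T cell markers above background on every array. Cd3g had log2 signals of 12.49 to 13.19, and Klrb1c had 4.48 to 5.15. The cell make-up of the tissue was not tested. Signals below are log2 values after background correction and quantile normalisation. A probe counts as above background on an array when fewer than 5% of the background rows reached its intensity. Signals of different probes are not set against each other, since they also depend on the probe.

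Of the 7 genes, 5 were above background on all 6 arrays and were tested, with 7 probes. None of these 5 passed limma's adjusted p of 0.05 between any pair of weeks. The count was 0 of 5 for week 9 against week 6, where 0.354% of 10167 features passed, 0 of 5 for week 15 against week 9, where 1.19% passed, and 0 of 5 for week 15 against week 6, where 0.0492% passed. The moderated F test for any change over the 3 weeks called 0 of 5 as well, against 0.620% of all features, with adjusted p between 0.235 for Fcgr3 and 0.543 for Fcgr4. Unadjusted p was under 0.05 for 1 of 5 genes at week 9 against week 6, Syk, which was higher, where 7.43% of all features were higher and 8.59% lower at that level. It was under 0.05 for 0 of 5 at week 15 against week 9, with 10.3% of features higher and 12.9% lower, and for 2 of 5 at week 15 against week 6, Fcgr3 and Fcgrt, which were lower, with 5.90% higher and 8.52% lower. Counting genes whose arrays did not overlap between the weeks gave 4 of 5 for week 9 against week 6, with 58.2% of all features, 2 of 5 for week 15 against week 9, with 54.9%, and 3 of 5 for week 15 against week 6, with 44.0%. Set beside these shares, counts out of 5 genes are no result about the receptors. The median change of the 5 genes was -0.17, -0.19 and -0.45 in these comparisons, against 0.04, -0.08 and -0.02 over all features.

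**Figure D1:**
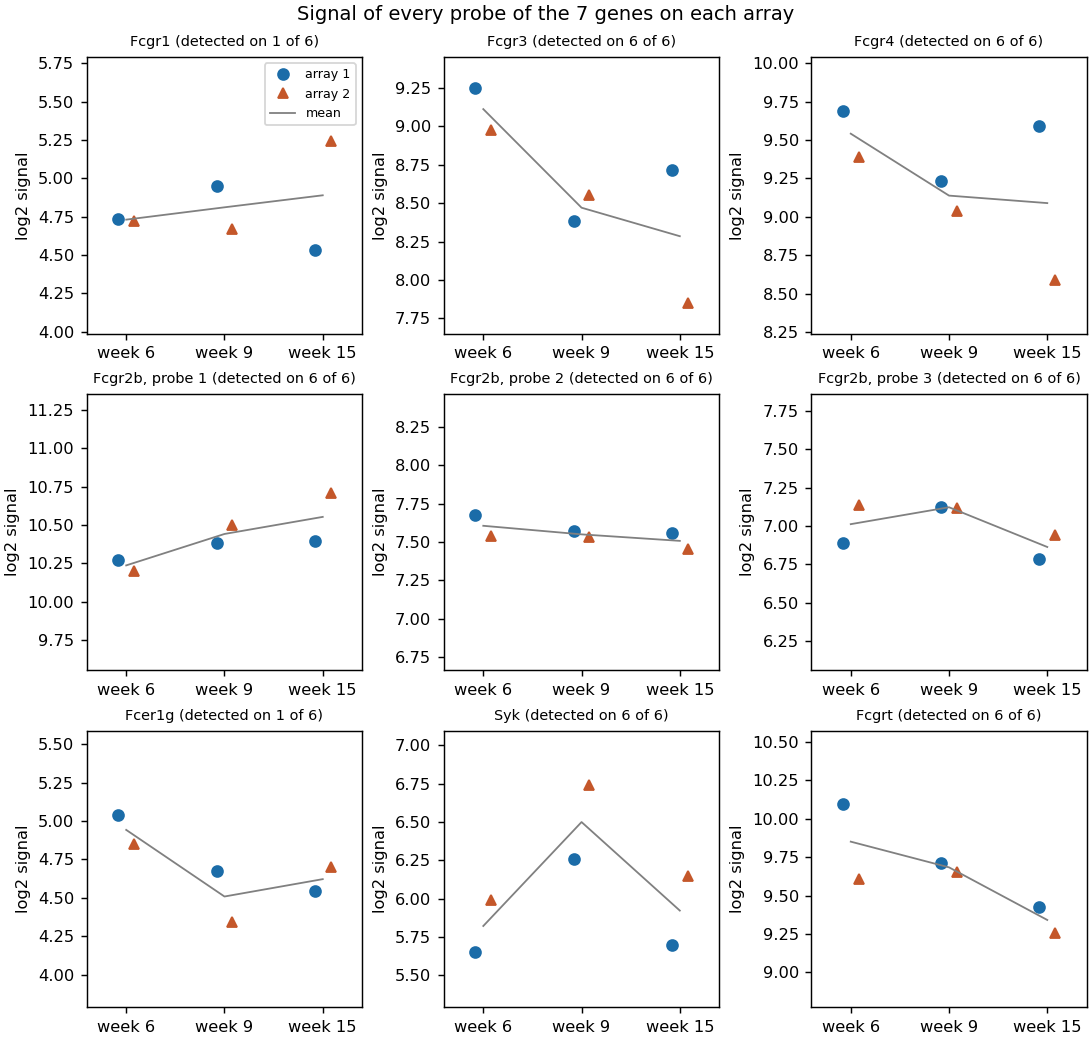
Log2 signal of each of the 9 probes (y axis, each panel spanning the same 1.8 log2 units around its own middle) at weeks 6, 9 and 15 (x axis), with a circle for the first array, a triangle for the second and a line through the means. Fcgr3 and Fcgr4 had their highest mean at week 6 and their widest spread at week 15, the first Fcgr2b probe had its highest mean at week 15, and Syk had its highest mean at week 9.

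Fcgr3, the low-affinity activating receptor of macrophages, neutrophils and natural killer cells, had log2 signals of 9.25 and 8.97 at week 6, 8.39 and 8.56 at week 9, and 8.72 and 7.85 at week 15. Both week 6 arrays lay above all others, and the week 15 arrays enclosed both week 9 arrays. Week means were 9.11 ± 0.20, 8.47 ± 0.12 and 8.28 ± 0.61 (SD, n = 2 each), so weeks 9 and 15 did not differ beyond their spread. The change was -0.64 (SE 0.29) for week 9 against week 6, with a 95% interval from -1.33 to 0.04 and an adjusted p of 0.340. For week 15 against week 6 it was -0.83, with an interval from -1.51 to -0.14, an unadjusted p of 0.0245 and an adjusted p of 0.285. For week 15 against week 9 it was -0.19, from -0.87 to 0.50. The gene's range over the 6 arrays, 1.40, was above that of 92.7% of the features, whose median range was 0.71.

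Fcgr4, which binds the IgG2 subclasses of mice with intermediate affinity and is made by monocytes, macrophages and neutrophils, had signals of 9.69 and 9.39 at week 6, 9.24 and 9.04 at week 9, and 9.59 and 8.59 at week 15. Week 9 lay below week 6 without overlap, while the first week 15 array reached the week 6 level and the second was the lowest of all. Week means were 9.54 ± 0.21, 9.14 ± 0.14 and 9.09 ± 0.71 (SD, n = 2 each). The change was -0.40 (SE 0.32, interval -1.16 to 0.36, adjusted p 0.572) for week 9 against week 6 and -0.45 (interval -1.21 to 0.31, adjusted p 0.546) for week 15 against week 6. Between weeks 15 and 9 the change was -0.05, with an interval from -0.81 to 0.71.

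The later values of both genes depended on which week 15 array was used. Without the second, Fcgr3 stood at 0.25 for week 15 against week 9 and -0.40 for week 15 against week 6, and Fcgr4 at 0.45 and 0.049. Without the first, they stood at -0.62 and -0.55 for week 15 against week 9, and Fcgr3 stood at -1.27 for week 15 against week 6 with an adjusted p of 0.0297, and Fcgr4 at -0.95 with an adjusted p of 0.0455. In that fit 1025 features passed for this comparison, against 5 with all arrays, and week 15 rested on 1 array assumed to vary like the other weeks.

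Fcgr1, the high-affinity activating receptor, was above background on 1 array only. Its signals were 4.74 and 4.72 at week 6, 4.95 and 4.67 at week 9, and 4.53 and 5.25 at week 15, where the second array was the one above background. The lowest signal of any probe above background was 5.01 to 5.13 per array. Fcgr1 was therefore not tested, and no fold is given between weeks that were both below background.

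**Figure D2:**
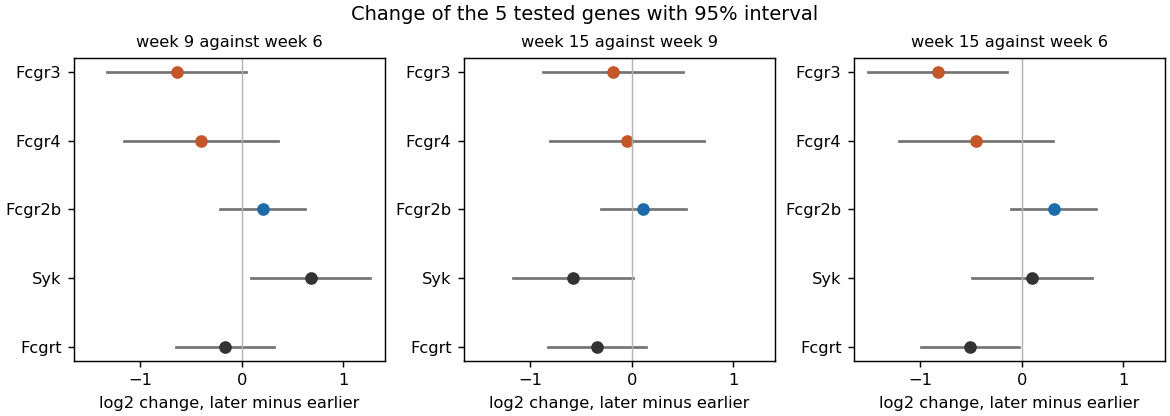
Log2 change, later minus earlier week (x axis), of the 5 tested genes (y axis), as points with 95% intervals from limma, with activating receptors in orange, Fcgr2b in blue and Syk and Fcgrt in black. Intervals that left out 0 were those of Syk for week 9 against week 6 (0.09 to 1.27) and of Fcgr3 (-1.51 to -0.14) and Fcgrt (-0.995 to -0.025) for week 15 against week 6, and none of these passed the adjusted threshold.

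Of 16 macrophage markers on the arrays, 13 were above background on every array, and Cd163, Msr1 and Ccr2 were on none. Their summed signal ranged from 67261 to 68674 at week 6, from 50874 to 58437 at week 9 and from 47026 to 54890 at week 15, but Lyz1 and Lyz2, lysozyme genes that neutrophils also use, made up 89.0% to 91.5% of the signal of the tested markers. Of the 13 tested, 12 had a negative change for week 9 against week 6, with a median of -0.72, and 12 for week 15 against week 6, with a median of -0.76, and none passed the adjusted threshold. Lgmn was the exception in both, at 0.03 and 0.19. Without the lysozyme genes the medians over 11 markers were -0.74 and -0.79. Over all features, 55.1% and 46.9% had a positive change in these comparisons, with medians of 0.04 and -0.02. Neutrophil markers summed to between 7120 and 10767 at week 6, 6122 and 6606 at week 9, and 4930 and 5205 at week 15, with 10 of 14 above background on every array and Mmp8 on none. Their median changes were -0.48 for week 9 against week 6 and -0.73 for week 15 against week 6 over 12 tested. Synovial fibroblast and endothelial markers had changes of like size, and lymphocyte markers did not. Synovial fibroblast markers had medians of -0.70 for week 9 against week 6 and -0.86 for week 15 against week 6 over 9 tested, of which 7 were above background on every array, and Vcam1 fell by 1.47 for week 9 against week 6 (adjusted p 0.0483). Endothelial markers had medians of -0.75 and -0.78 over 11 tested, of which 7 were above background on every array. In the same comparisons, B cell markers had medians of 0.01 and 0.10 over 10 tested. NK and T cell markers had medians of 0.33 and 0.10 over 9 tested. In tissue RNA, fewer cells of a type and less RNA per cell cannot be told apart, and the part of these cell types in the receptor values was not tested.

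**Figure D3:**
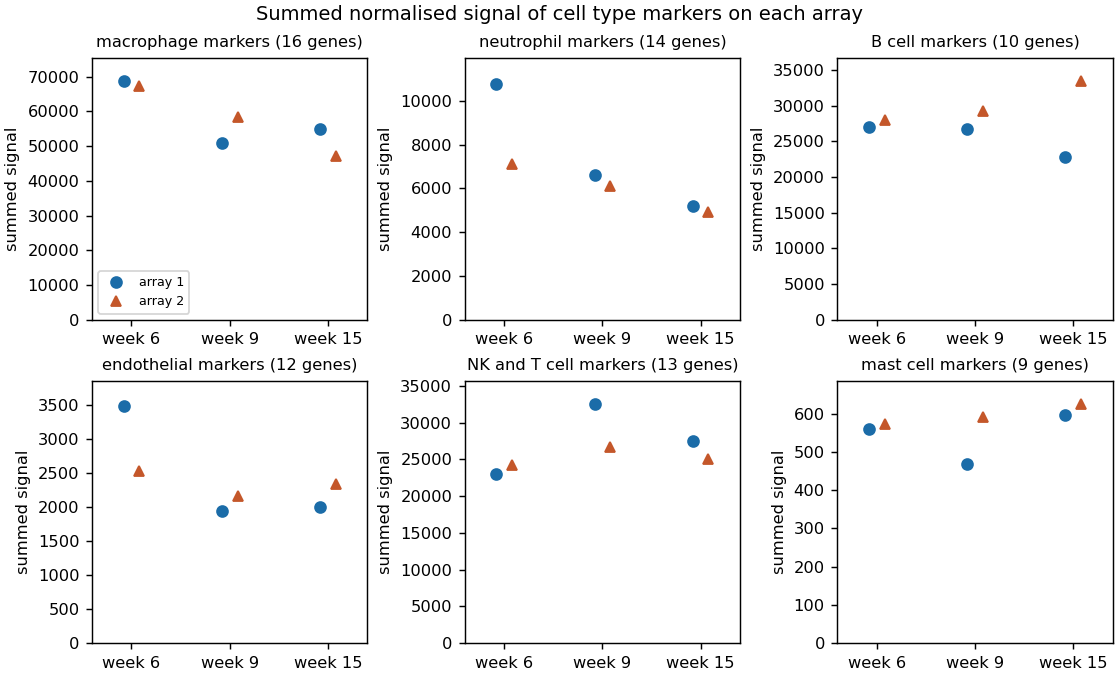
Summed normalised signal on a linear scale starting at 0 (y axis) of 6 lists of cell type markers at weeks 6, 9 and 15 (x axis), with a circle for the first array and a triangle for the second. Macrophage and neutrophil sums were highest on the week 6 arrays, and B cell sums spread most at week 15, from 22860 to 33401.

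Fcgr2b, the inhibitory receptor, was measured by 3 probes, all above background on every array. The brightest of them stood for the gene in the tests and is annotated to one RefSeq transcript, and the other two are annotated to another. Which isoforms each probe detects is not known here. The brightest probe had signals of 10.27 and 10.20 at week 6, 10.38 and 10.50 at week 9, and 10.40 and 10.71 at week 15. All later arrays lay above both week 6 arrays, and weeks 15 and 9 overlapped. The change was 0.20 (SE 0.18, interval -0.21 to 0.62, adjusted p 0.604) for week 9 against week 6, 0.11 (interval -0.31 to 0.53) for week 15 against week 9, and 0.32 (interval -0.10 to 0.73, adjusted p 0.455) for week 15 against week 6. Without the second week 15 array the last of these was 0.16. The range over all arrays was 0.51, which is above that of only 26.3% of the features. The course at week 15 depended on the scaling of the dim second array. Before normalisation that array had the lowest intensity of this probe, 1143 against 1222 to 1786 on the others. With scaling to the 75th percentile, the log2 change for week 15 against week 9 was -0.056.

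The other Fcgr2b probes did not share the upward direction at week 15. The second had signals of 7.67 and 7.54 at week 6, 7.57 and 7.53 at week 9, and 7.56 and 7.46 at week 15, with a change of -0.10 for week 15 against week 6. The third had signals of 6.89 and 7.13 at week 6, 7.13 and 7.12 at week 9, and 6.79 and 6.94 at week 15, with a change of -0.15. Fitted with every probe above background, neither change passed, with adjusted p of 0.818 and 0.732. Whether the probes differ from one another was not tested.

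B cells, which carry Fcgr2b as their Fc gamma receptor, had marker sums of 27061 and 27910 at week 6, 26683 and 29256 at week 9, and 22860 and 33401 at week 15. The second week 15 array was highest both in this sum and for the brightest Fcgr2b probe. The sum weighs bright probes most, and the median log2 signal of the B cell markers was not highest there. That median was 10.43 and 10.45 at week 6, 10.17 and 10.45 at week 9, and 9.93 and 9.98 at week 15. The part of B cells in the Fcgr2b signal was not tested.

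The balance of activating to inhibitory receptors was described by the difference of log2 signals within each array, centred on its mean over the 6 arrays so that only its changes are read. Fcgr3 minus the brightest Fcgr2b probe stood at 0.76 and 0.56 at week 6, -0.21 and -0.16 at week 9, and 0.11 and -1.07 at week 15. Week 6 lay above every later array, and the week 15 arrays lay on either side of week 9. The change of this difference was -0.85 for week 9 against week 6, -0.30 for week 15 against week 9 and -1.14 for week 15 against week 6. For Fcgr4 minus Fcgr2b the centred values were 0.57 and 0.35 at week 6, 0.01 and -0.31 at week 9, and 0.35 and -0.97 at week 15, so that week 15 overlapped week 6. Its changes were -0.61, -0.16 and -0.77 in the same order.

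The mean of Fcgr3 and Fcgr4 minus Fcgr2b, an average chosen after seeing the data because Fcgr1 was near background, had centred values of 0.67 and 0.45 at week 6, -0.10 and -0.23 at week 9, and 0.23 and -1.02 at week 15. Its changes were -0.73 for week 9 against week 6, -0.23 for week 15 against week 9 and -0.96 for week 15 against week 6. The average first planned, with Fcgr1 included, gave -0.53, -0.16 and -0.69, but Fcgr1 enters it at background level on 5 of 6 arrays. No test was made of these averages. For week 9 against week 6, each of the 6 pairs of Fcgr3 or Fcgr4 with an Fcgr2b probe had a negative change, from -0.85 to -0.35, and those pairs share their 5 probes and all arrays. Set against the second and the third Fcgr2b probe, the changes for week 15 against week 6 were -0.73 and -0.68 for Fcgr3 and -0.35 and -0.30 for Fcgr4, smaller than against the brightest probe. Fcgr4 minus Fcgr3 changed by 0.24 for week 9 against week 6 and by 0.38 for week 15 against week 6, a difference between the activating receptors that was not tested.

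**Figure D4:**
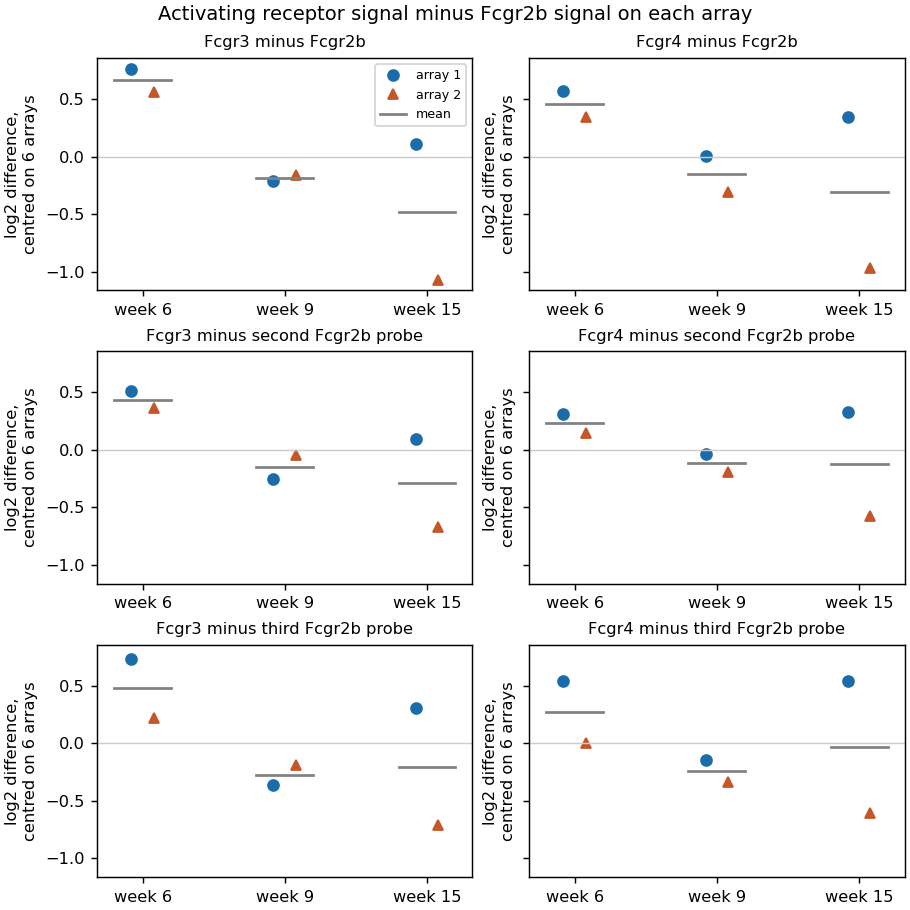
Log2 signal of Fcgr3 (left) or Fcgr4 (right) minus each of 3 Fcgr2b probes on the same array, centred on the mean over 6 arrays (y axis), at weeks 6, 9 and 15 (x axis), with a circle for the first array, a triangle for the second and a bar for the mean. Week 9 lay below week 6 in all 6 panels, and the second week 15 array was the lowest point of each.

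Fcer1g, the chain on which the activating receptors depend, was above background on the first week 6 array only. Its signals were 5.04 and 4.85 at week 6, 4.67 and 4.34 at week 9, and 4.54 and 4.70 at week 15. Both week 6 arrays were the highest, but the values lie at the lower limit of detection, and the gene was not tested. How well its single probe reports the transcript is not known here, so the probe gives neither a level nor a change.

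Syk, the kinase that docks on the phosphorylated chain, had signals of 5.65 and 5.99 at week 6, 6.26 and 6.74 at week 9, and 5.70 and 6.15 at week 15. Both week 9 arrays lay above all others, and weeks 15 and 6 overlapped. The change was 0.68 (SE 0.25, interval 0.09 to 1.27) for week 9 against week 6, with an unadjusted p of 0.0302 and an adjusted p of 0.272. For week 15 against week 9 it was -0.58 (interval -1.17 to 0.01, adjusted p 0.222), and for week 15 against week 6 it was 0.10 (interval -0.49 to 0.69). The peak at week 9 kept its sign under every alternative, with changes from 0.21 to 0.91 for week 9 against week 6 and from -0.81 to -0.18 for week 15 against week 9. Syk is made by most blood cell lineages other than mature T cells. Macrophage sums were lower at week 9 than at week 6. B cell sums were 27061 and 27910 at week 6, 26683 and 29256 at week 9, and 22860 and 33401 at week 15. NK and T cell sums were 23089 and 24205 at week 6, 32556 and 26751 at week 9, and 27473.6 and 25130.5 at week 15. All these sums weigh bright probes most, such as that of the T cell gene Cd3e. Its signals were 11.60 and 11.49 at week 6 and 12.52 and 12.02 at week 9. The median log2 signal of the NK and T cell list was 10.40 and 10.28 at week 6 and 10.47 and 10.30 at week 9. Cd8a, Ncr1, Gzma and Gzmb were above background on no array. For week 9 against week 6, 7 of the 9 tested NK and T cell markers had a positive change, as did 55.1% of all features, while Prf1 changed by -1.24. The part of these cells in the Syk signal was not tested.

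Fcgrt, the recycling receptor of endothelial cells and macrophages, had signals of 10.09 and 9.61 at week 6, 9.71 and 9.65 at week 9, and 9.43 and 9.26 at week 15. Both week 15 arrays lay below all earlier ones, and weeks 9 and 6 overlapped. Week means were 9.85 ± 0.34, 9.68 ± 0.04 and 9.34 ± 0.12 (SD, n = 2 each). The change for week 15 against week 6 was -0.51 (SE 0.21, interval -0.995 to -0.025), with an unadjusted p of 0.0418 and an adjusted p of 0.331, and it was -0.27 without the first week 6 array. It was -0.34 (interval -0.83 to 0.14) for week 15 against week 9 and -0.17 (interval -0.65 to 0.32) for week 9 against week 6, and the last of these stood at 0.076 without the first week 6 array. Endothelial markers summed to 3494 and 2540 at week 6, 1938 and 2160 at week 9, and 2004 and 2337 at week 15, with 7 of 12 above background on every array, and their part was not tested. B2m, the partner chain of Fcgrt, changed by 0.02, 0.03 and 0.05 for week 9 against week 6, week 15 against week 9 and week 15 against week 6.

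The genes that act around the receptors were read from 7 lists with 74 genes on the arrays, of which 59 were tested. None passed the adjusted threshold in any comparison, and the lowest adjusted p was 0.0703 for week 9 against week 6, 0.0661 for week 15 against week 9 and 0.0605 for week 15 against week 6. Unadjusted p was under 0.05 for 4 higher and 9 lower genes, for 9 higher and 4 lower, and for 6 higher and 6 lower in the same order. Over all features these shares were 7.43% and 8.59%, 10.3% and 12.9%, and 5.90% and 8.52%. The median change of the 59 was -0.03, 0.03 and -0.03, against 0.04, -0.08 and -0.02 over all features.

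Of the Src family kinases that phosphorylate the motifs, Fgr, Fyn and Src were tested. Fyn had signals of 8.72 and 8.88 at week 6, 9.09 and 9.04 at week 9, and 9.24 and 9.60 at week 15, each week above the one before without overlap. Its change for week 15 against week 6 was 0.62 (SE 0.18, adjusted p 0.238). Fgr, the myeloid member, changed by -0.47 for week 9 against week 6 (adjusted p 0.329).

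Among the adaptors and effectors below Syk, 23 of 27 genes were tested, with median changes of 0.06, -0.10 and -0.02. Plcg2, the phospholipase that opens the calcium response, had signals of 11.07 and 10.86 at week 6, 11.39 and 11.46 at week 9, and 10.82 and 10.68 at week 15. Like Syk, its week 9 arrays were the highest, with changes of 0.46 (SE 0.17, adjusted p 0.269) for week 9 against week 6 and -0.68 (SE 0.17, adjusted p 0.0991) for week 15 against week 9. Lcp2, the adaptor also called SLP-76, had signals of 7.09 and 7.40 at week 6, 7.29 and 7.38 at week 9, and 7.96 and 8.35 at week 15. Its week 15 arrays were the highest, with changes of 0.82 against week 9 (adjusted p 0.101) and 0.91 against week 6 (adjusted p 0.176). The exchange factor Vav2 was below background on both week 15 arrays, at 4.68 and 4.84, against 5.60 and 5.44 at week 9.

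Of the inhibitory phosphatases and adaptors, which act downstream of Fcgr2b or restrain the Src kinases, 11 of 11 genes on the arrays were tested. Inpp5d, the phosphatase recruited by Fcgr2b, had a change of 0.35 for week 9 against week 6 (adjusted p 0.434) and 0.01 for week 15 against week 6. Pag1, a membrane adaptor that holds the kinase Csk near its Src family targets, had signals of 5.32 and 4.78 at week 6, 6.31 and 6.45 at week 9, and 6.66 and 6.84 at week 15. Every later array lay above week 6, with changes of 1.33 (SE 0.22, adjusted p 0.0703) for week 9 against week 6 and 1.70 (SE 0.22, adjusted p 0.0605) for week 15 against week 6, and the gene was below background on the second week 6 array. Ptpn22, a phosphatase of Src family kinases, changed by 0.94 for week 15 against week 9 (adjusted p 0.0923). Dok3, an adaptor of B cells and macrophages, changed by -0.76 in that comparison (adjusted p 0.155).

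**Figure D5:**
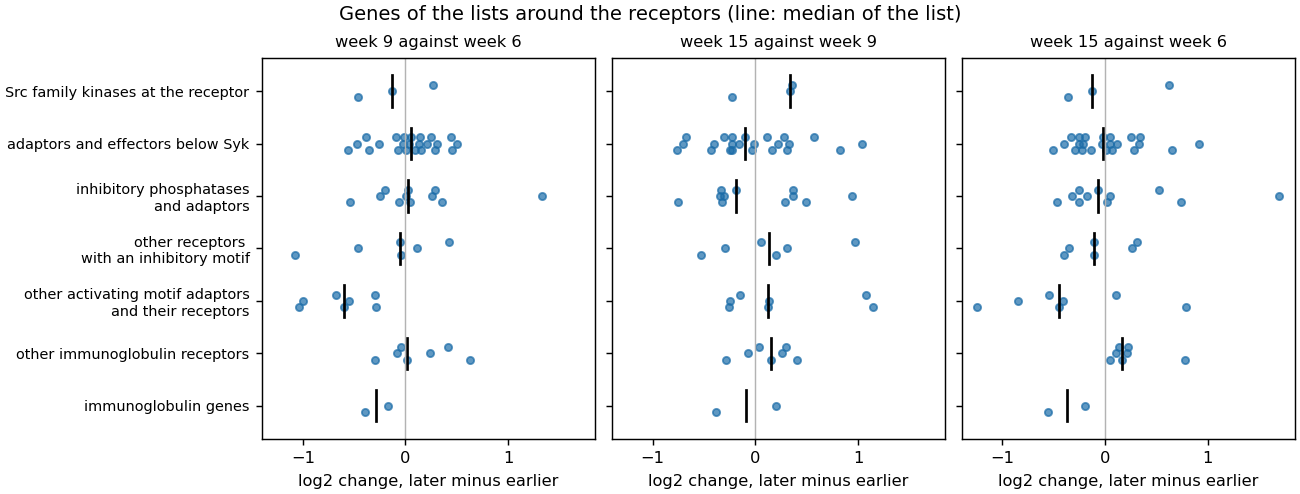
Log2 change, later minus earlier week (x axis), of each tested gene of the 7 lists (y axis), as points, with a line at the median of the list. The list of other activating motif adaptors and their receptors had its genes below 0 for week 9 against week 6, with a median of -0.57 over the 6 genes other than Fcer1a, which was above background only at week 6, and Pag1 was the highest point in the panels against week 6, at 1.33 and 1.70.

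The list of other activating motif adaptors and their receptors had 7 of 11 genes tested, and all 7 had a negative change for week 9 against week 6, with a median of -0.60 against 0.04 for all features. None of the 7 passed the adjusted threshold. Fcer1a entered only through the 2 week 6 arrays, on which alone it was above background, so that its sign followed from the filter, and without it 6 of 6 were negative with a median of -0.57. Clec7a, the beta-glucan receptor that signals through Syk, had signals of 8.99 and 8.71 at week 6, 7.80 and 7.84 at week 9, and 9.23 and 8.69 at week 15. Week 9 was the lowest, with changes of -1.03 (SE 0.22, adjusted p 0.126) against week 6 and 1.14 (SE 0.22, adjusted p 0.0661) for week 15 against week 9. Trem2, a lipid-binding receptor paired with Tyrobp, had signals of 7.40 and 6.78 at week 6, 5.97 and 6.22 at week 9, and 6.19 and 5.50 at week 15, with a change of -1.25 for week 15 against week 6 (adjusted p 0.195). Tyrobp itself changed by -0.30 for week 9 against week 6 (adjusted p 0.490) and by -0.45 for week 15 against week 6 (adjusted p 0.358). Clec4n, a mannan receptor that signals through the Fcer1g chain, changed by -0.60 for week 9 against week 6 (adjusted p 0.311) and by -0.85 for week 15 against week 6 (adjusted p 0.238). For week 15 against week 6 the list was split, with 5 negative and 2 positive changes and a median of -0.45. Without Fcer1a, 4 of 6 were negative, with a median of -0.43. The positive changes were 0.79 for Clec4d (adjusted p 0.377) and 0.11 for Clec7a. Both week 15 arrays of Clec4d lay above all its earlier ones.

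Of the other receptors with an inhibitory motif, 6 of 9 were tested, with median changes of -0.05, 0.13 and -0.11. Sirpa, the receptor for Cd47 on myeloid cells, had signals of 6.15 and 6.06 at week 6, 5.16 and 4.90 at week 9, and 5.78 and 6.21 at week 15. Both week 9 arrays were the lowest, with changes of -1.08 (SE 0.21, adjusted p 0.0979) against week 6 and 0.97 (SE 0.21, adjusted p 0.0822) for week 15 against week 9, and the gene was below background on the second week 9 array. Cd22, the inhibitory lectin of B cells, changed by -0.46 for week 9 against week 6 (adjusted p 0.249).

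Other immunoglobulin receptors had 7 of 10 genes tested, and all 7 had a positive change for week 15 against week 6, with a median of 0.17 against -0.02 for all features, and none passed. Fcrl5, an Fc receptor-like protein of B cells, had signals of 5.05 and 5.56 at week 6, 5.78 and 6.09 at week 9, and 6.13 and 6.04 at week 15, with changes of 0.63 (SE 0.22, adjusted p 0.256) for week 9 against week 6 and 0.78 (SE 0.22, adjusted p 0.227) for week 15 against week 6. Fcer2a, the low-affinity receptor for immunoglobulin E, changed by 0.42 for week 9 against week 6 (adjusted p 0.387).

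The genes whose pattern over the 6 arrays came closest to each receptor were found by the root mean square difference of log2 values, each centred on its own mean, among 9202 named genes. For Fcgr3 they were Chst1 (0.0481), Mt1 (0.0573) and Pparg (0.0680), where the median gene differed by 0.489. For Fcgr4 they were Lst1 (0.0677), Gpc1 (0.0679) and Cnpy2 (0.0821), with a median gene at 0.426. Anxa6 (0.0256), Ufl1 (0.0284) and Ubxn8 (0.0320) lay nearest to Fcgr2b, with a median gene at 0.294. Nearest to Syk were Bcl2l14 (0.0456), Tmem254a (0.0889) and Them5 (0.112), with a median gene at 0.422, and the signals of Bcl2l14 and Them5 reached down to 4.67 and 4.53, in the range of the background. Lamb3 (0.0304), Nrp (0.0613) and Nav1 (0.0624) came nearest to Fcgrt, with a median gene at 0.333. With 6 arrays and 9202 genes searched, a small difference is a description of these arrays only.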

How the data were processed

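Synovial RNA was measured on 6 bead arrays, 2 for each of 3 weeks. Per the file headers, the authors deposited a table with the intensity of each probe on each array, which is linear and not normalized from its values. The steps before it are not given in the sources. The processed values deposited by the authors are on a log2 scale, from their range and their match to the log2 intensities (Pearson's r of at least 0.9958 for the same array and at most 0.9922 for another), with medians of 6.732 to 6.734, and served as an alternative. A further 2 columns of the table matched no sample and were not used.

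Rows without a probe ID were taken as control rows. Of these 1124, 13 bright ones (over 5 median absolute deviations above the median) were left out and 1111 served as the background set. Intensities were corrected with the normal-exponential model (neqc, offset 16), quantile-normalized and log2-transformed. Probes with a detection p under 0.05 on at least 2 arrays were kept (13633), and the brightest probe stood for its gene (10167 features). All arrays were fitted in 1 model with week means (limma 3.58.1 in R 4.3.3, lmFit and eBayes, 3 residual and 4.02 prior degrees of freedom), with two-sided p-values and Benjamini-Hochberg adjustment over all features at 0.05. The fit was tested on simulated data. With 2 arrays a week, their number limits the precision. Alternatives were other background corrections and scalings, the authors' values, every probe, other filters, the 4 arrays compared, a replicate block and leaving out each array.

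The 7 genes and all lists were chosen with earlier results of these data known. Genes named are the members with every probe, the 3 genes of smallest p per list and comparison or a choice from them, and the 3 genes nearest to each member. Tyrobp, Inpp5d and B2m are named as partners of the receptors. Probe names come from the platform annotation, with 23962 of 23978 named probes matched to a RefSeq gene of GRCm38.p6, and promoters were matched by symbol for all 7 genes.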

Additional observations from a re-analysis of the deposited data

How the results depend on the processing

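Of 315 recomputed changes of the member genes under 15 alternatives, 300 kept their sign and 15 turned, 9 of them among the 225 of the 5 tested genes and 6 among the 90 of Fcgr1 and Fcer1g, which lay near background. Of the changes of Fcgr1 and Fcer1g, 12 moved by more than the spread between arrays, and of those of the tested genes 2 passed the threshold, those of Fcgr3 and Fcgr4 for week 15 against week 6 without week 15 replicate 1. With 1 array left out, Fcgrt for week 9 against week 6 ran from -0.41 to 0.076, where 0.076 was without week 6 replicate 1. For week 15 against week 9, Fcgr3 ran from -0.62 to 0.25, Fcgr4 from -0.55 to 0.45 and Fcgr2b from -0.045 to 0.26, and each turned in sign without week 15 replicate 2. Fcgr4 in that comparison stood at 0.051 without week 9 replicate 1, and scaling to the 75th percentile gave -0.056 for Fcgr2b. For week 15 against week 6, Fcgr4 ran from -0.95 to 0.049 and Syk from -0.13 to 0.33, with the turned signs without week 15 replicate 2 and, at -0.071 for Syk, without week 6 replicate 1. The count of member genes called for week 15 against week 6 ran from 0 to 2 over the fits that left out 1 array, and was 0 in all other fits. The mean of the activating receptors minus Fcgr2b, which includes Fcgr1 at background level on 5 of 6 arrays, ran from -0.51 to 0.18 for week 15 against week 9 and from -1.04 to -0.34 for week 15 against week 6 when 1 array was left out. The third Fcgr2b probe gave 0.21 and -0.23, and the second -0.28 for week 15 against week 6, both chosen after seeing the data.

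Counts over all features moved far more. Week 9 against week 6 had 36 calls, and 69 with no background correction, 83 with an offset of 50, 83 when scaled to the 75th percentile, 71 over every probe, 171 with the 4 arrays compared and 0 to 168 with 1 array left out. Week 15 against week 9 had 121, and 355 with no background correction, 275 with the offset of 50, 329 in the authors' values, 327 over every probe, 3 with the 4 arrays compared and 0 to 2017 with 1 array left out. Week 15 against week 6 had 5, and 29 with no background correction, 44 with the offset of 50, 10 when scaled to the 75th percentile, 15 in the authors' values and 3 to 1025 with 1 array left out. The F test had 63, and 201 with no background correction, 190 with the offset of 50, 117 when scaled, 95 in the authors' values, 152 over every probe and 3 to 1649 with 1 array left out. Among the calls, the higher share was 81.8% for week 15 against week 9, and 68.7% with no background correction, 92.6% when scaled and 66.9% in the authors' values. For week 15 against week 6 it was 100%, and 62.1% with no background correction, 54.5% with the offset of 50, 90% when scaled and 80% in the authors' values. The cause of these moves was not tested. A pairing of the arrays by replicate number was not seen, which does not show that there was none. Deviations from the week means correlated at -0.039 for weeks 6 and 9, 0.154 for weeks 6 and 15 and -0.082 for weeks 9 and 15. The fit with a replicate block gave 8 calls for week 9 against week 6, 34 for week 15 against week 9 and 9 in the F test. No member was called under the block.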

Other observations

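Genes of antibody-secreting cells, the source of the ligands of these receptors, could be followed through 2 genes only, since no probe of an immunoglobulin constant region is named here. Mzb1, a chaperone of antibody assembly, had log2 signals of 13.70 and 13.49 at week 6, 13.26 and 13.59 at week 9, and 13.21 and 12.87 at week 15. Both week 15 arrays were the lowest, with a change of -0.56 for week 15 against week 6 that did not pass limma's adjusted threshold. Jchain, which joins secreted immunoglobulin A and M, had signals of 5.18 and 5.86 at week 6, 5.08 and 5.16 at week 9, and 5.40 and 5.25 at week 15, with weeks 15 and 6 overlapping. It was above background on 5 arrays, and several of its values lay close to the lowest signal above background, 5.01 to 5.13 per array. Which cells gave the signals of Mzb1 and Jchain was not tested.

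Mast cells carry Fcgr3 and Fcer1g as well. Their markers summed to 562 and 574 at week 6, 469 and 593 at week 9, and 598 and 627 at week 15, with 4 of 9 above background on every array and Ms4a2 and Mrgprb1 on none.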
